A study of Cenchrus purpureus with 8 samples.

Results

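The loci with many assembled transcripts were described in young stem of napiergrass (Cenchrus purpureus), a tall perennial forage grass. A locus was a member if 10 or more transcripts were listed under its identifier, whatever their reads. This held for 185 of 66981 loci (0.276%), and these loci carried 2384 of the 101169 transcripts (2.36%). The rule reads only the identifiers and sets no limit on reads. How far the number of transcripts listed depends on read depth was not tested.

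The series holds 8 RNA-seq libraries of the uppermost stem nodes, 1 per entry of a germplasm bank, and its title asks which genes go with lignin production. The 4 high lignin entries were BAGCE 5, BAGCE 10, BAGCE 82 and BAGCE Pioneiro. The 4 low lignin entries were BAGCE 7, BAGCE 32, BAGCE 96 and BAGCE 98. No treatment was given: the lignin class of each entry came from earlier work of the laboratory, and lignin content itself was not analysed here. Values given for all entries below follow that order. Each entry was sampled once, so entry and sample cannot be told apart. Every p-value rests on the spread between entries, which the test of transcript usage also pools over the transcripts of a locus.

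As background, 1 gene can give several transcripts through alternative splicing, alternative transcription starts and alternative ends of the RNA. An assembler such as StringTie builds transcripts from reads aligned to the genome, groups overlapping ones into a locus and numbers them within it. The identifiers here begin with MSTRG. Napiergrass is a polyploid, and closely placed gene copies or incompletely spliced RNA can also enter a locus as separate transcripts. A quantifier such as Salmon then divides reads from shared exons among the transcripts by a statistical model, so the share of 1 transcript is an estimate. The files pair no identifier with a gene name, so functions are not given and the stem label was not checked against marker genes.

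Members had 10 to 35 transcripts, with a median of 12, and 137 of the 185 had 10 to 13. Member transcripts were 200 to 13263 bases long, with a median of 1671.5. Within a locus the longest transcript was a median of 2.30 times the length of the shortest (range 1.08 to 15.6). At the edge of the rule, the 52 loci with 10 transcripts had a median of 751 reads per library, and the 84 loci with 9 transcripts had 720. The leading transcript held a median of 13.8% of locus reads in the 43 of the 52 with at least 20 reads in every library, and 16.2% in 77 of the 84. These values describe neighbours across a fixed limit and were not tested.

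The libraries held 15405987 to 17997520 assigned reads in high lignin entries and 14925391 to 16970262 in low lignin entries. Members took 4.72%, 14.1%, 10.2% and 6.96% of all reads in the high lignin entries BAGCE 5, 10, 82 and Pioneiro, and 7.86%, 11.3%, 16.8% and 10.2% in the low lignin entries BAGCE 7, 32, 96 and 98. The groups overlapped, at 8.99% ± 4.07 in high lignin entries and 11.5% ± 3.78 in low lignin (SD, n = 4 each). By TPM, the abundance scaled for transcript length and depth, the same loci held 8.55% ± 3.79 in high lignin entries and 10.7% ± 3.25 in low lignin. The most abundant member, MSTRG.65584, held 5.50% ± 3.71 of all reads in high lignin entries and 7.98% ± 3.83 in low lignin, and the other 184 members together held 3.49% ± 0.572 in high lignin entries and 3.54% ± 0.103 in low lignin (SD, n = 4 each). BAGCE 5 had the lowest and BAGCE 96 the highest level of MSTRG.65584.

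**Figure D1:**
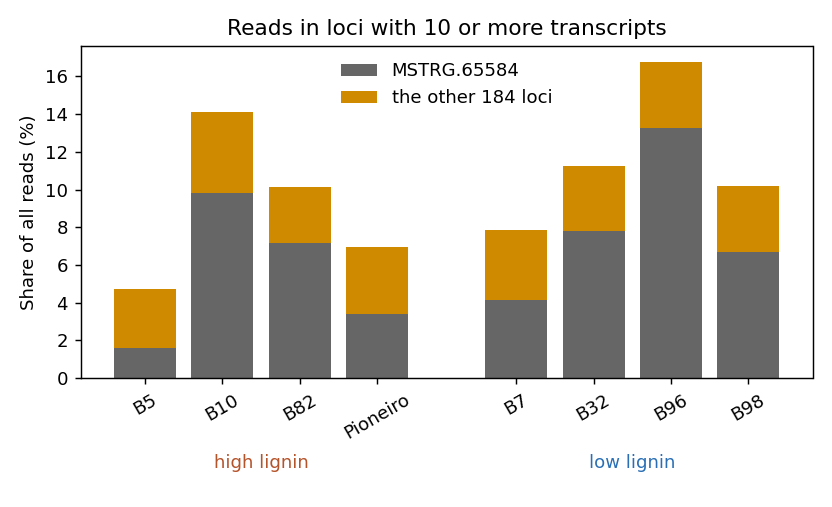
Percent of all assigned reads in the 185 loci with 10 or more transcripts, 1 stacked bar per entry (B5 stands for BAGCE 5, and so on), high lignin entries left and low lignin entries right. Grey is MSTRG.65584, which ran from 1.58% in BAGCE 5 to 13.2% in BAGCE 96; the other 184 loci held 2.99% to 4.27% in every library.

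Estimated reads were spread over many transcripts of a locus. Of members' estimated counts 99.984% were whole. Whether shared reads were divided among transcripts or counted for several of them was not tested, and the shares depend on it. Shares were computed for the 162 members with at least 20 reads in every library; the other 23 fell below this in some library and enter no share. The leading transcript, the one with the most reads, held a median of 14.2% of its locus (range over loci 6.94% to 40.6%). This was 1.77 times the share that equal division would give. By TPM the leading share was 12.7%. The effective number of transcripts, which equals the listed number when all shares are equal, had a median of 9.80, or 82.5% of the listed number. It was close to the same in every library, at 9.74 to 9.82 in high lignin entries and 9.72 to 9.86 in low lignin as medians over the members. In just 3 members did 1 transcript exceed 50% of the locus in any library.

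**Figure D2:**
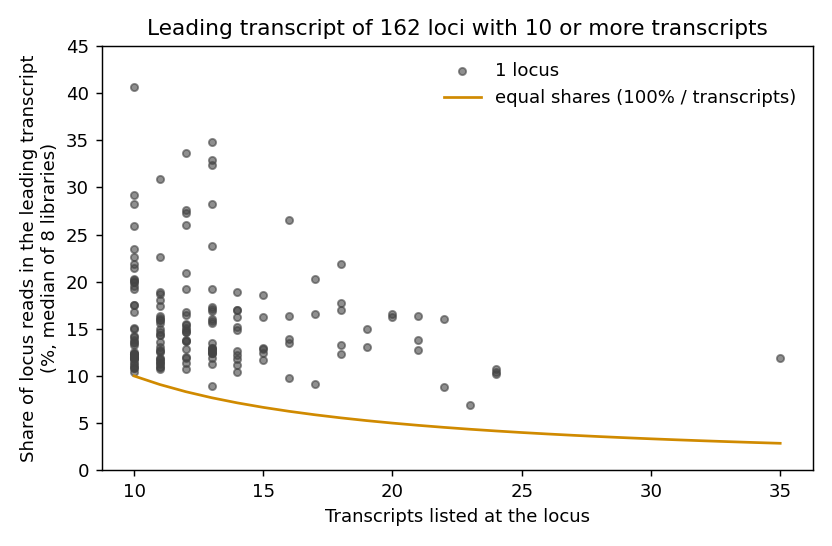
Share of locus reads in the leading transcript (vertical axis, percent, median of 8 libraries) against the number of transcripts listed (horizontal axis) for 162 loci, 1 point per locus; the line is equal division. Points lie above the line, by a median factor of 1.77, and fall with the number of transcripts.

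The locus with the most transcripts, MSTRG.790, listed 35, from 362 to 3145 bases. It had 5691, 1957, 4703 and 1754 reads in the high lignin entries and 8861, 1341, 11066 and 323 reads in the low lignin entries. Its groups overlapped, and BAGCE 98 was lowest. Transcript 14, the longest, led in BAGCE 82, 7, 96 and 98, transcript 1 in BAGCE Pioneiro and 32, transcript 7 in BAGCE 5 and transcript 12 in BAGCE 10. Transcript 12 held 8.84% of the locus in BAGCE 10 and 0.0904% in BAGCE 96, so the order of transcripts differed in depth between these entries.

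The next in transcript number were MSTRG.19979 and MSTRG.59217 with 24 each, and both also belonged to the 5 members with the most reads. MSTRG.19979 had 62, 105034, 26318 and 2404 reads in the high lignin entries and 12420, 20787, 60920 and 4263 in the low lignin entries. BAGCE 5 was lowest and BAGCE 10 highest, both of them high lignin entries. After scaling for depth (CPM, counts scaled to 1 common TMM-adjusted library total) the range between entries was 2014-fold, the widest of the 162. Transcript 15 led in 5 entries with 9.04% to 11.6%, had 0 of the 62 reads in BAGCE 5 and held 1.46% in BAGCE Pioneiro, where transcript 7 led.

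MSTRG.59217 was steadier. It had 20322, 28049, 32411 and 40469 reads in high lignin entries and 34125, 57754, 39224 and 52850 in low lignin. Transcript 20, the longest at 1723 bases, led in all 8 entries with 9.25% to 11.9% in high lignin entries and 10.6% to 11.3% in low lignin. By TPM, transcript 20 led in 5 entries and transcript 23 in BAGCE Pioneiro, 7 and 98.

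MSTRG.65584, the most abundant member, listed 10 transcripts of 415 to 2739 bases. Its reads were 284947, 1754780, 1104210 and 591211 in high lignin entries and 704883, 1275760, 2248350 and 999501 in low lignin. The groups overlapped, and edgeR's quasi-likelihood fit gave a log2 fold change (high over low) of -0.53 (SE 0.73, adjusted p = 0.9997). While its amount differed between entries, its shares did not move far. Transcript 2 held 23.7%, 22.7%, 23.2% and 24.2% in high lignin entries and 23.99%, 21.9%, 23.9% and 22.7% in low lignin. By TPM the lead passed between transcript 2 (BAGCE 5 and 7), transcript 6 (BAGCE Pioneiro and 96) and transcript 10 (the other entries).

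The other abundant members were MSTRG.59401 and MSTRG.15066. In MSTRG.59401, with 24 transcripts, transcript 14 led everywhere except BAGCE 10, where transcript 19 held 7.06% against 6.94% for transcript 14. In MSTRG.15066, with 23 transcripts of nearly 1 length (1647 to 1795 bases), the leading share never exceeded 7.96%. Transcripts 19, 20, 23 and 23 led in the high lignin entries, and transcripts 6, 6, 22 and 6 in the low lignin entries. Reads and TPM named the same leader in each entry. Transcript 6 held 5.28%, 5.32%, 6.20% and 6.16% in high lignin entries and 6.87%, 7.96%, 6.16% and 7.001% in low lignin, so the groups overlapped by the value of BAGCE 96.

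Counting leaders over all 162 members, 28 (17.3%) had 1 dominant transcript in all 8 libraries without a tie. The same held for 4787 of 11574 loci with 2 to 9 transcripts (41.4%), and for 12 of 77 loci with 9 transcripts (15.6%), so the value of loci with 10 or more was close to that of their nearest neighbours. With ties left out, 35 members showed 1 dominant transcript, 65 showed 2, 35 showed 3, 23 showed 4 and 4 showed 5. In 74 members some library had a tie for the lead. In 24 of the 28 members with a constant leader, that leader was the longest transcript of its locus.

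**Figure D3:**
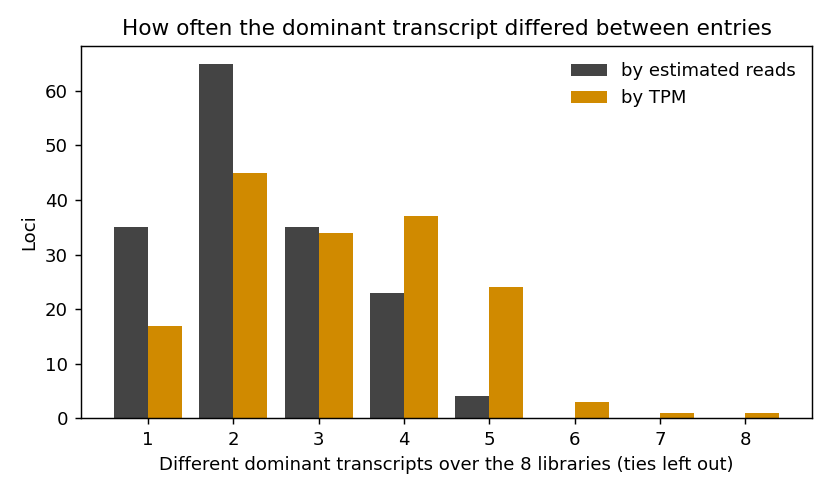
Number of loci (vertical axis) by the number of different dominant transcripts over the 8 libraries (horizontal axis, ties left out), for 162 loci, by estimated reads (grey) and by TPM (yellow). By reads 27 loci had 4 or more dominant transcripts; by TPM 66 did.

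Many of these changes of leader were small. Over 1296 combinations of locus and library, the leader had a median of 1.08 times the reads of the next transcript, and in 709 (54.7%) the lead was under 1.1 times. A stricter count took as changed a library where the top transcript, alone or tied, had at least 1.5 times the reads of the usual leader. By it 36 of the 162 members changed (22.2%), compared with 10 of 77 loci with 9 transcripts (12.99%) and 2.998% of loci with 2 to 9 transcripts. Of the 69 such changes 8 were in tied libraries, and without them 33 members changed (20.4%). With tied libraries counted, the change fell in 1 library in 14 members, in 2 libraries in 14 and in 3 or more in 8. It fell in high lignin entries alone in 12 members, in low lignin entries alone in 6 and in both in 18. By entry, with tied libraries left out, the count was 12, 14, 5 and 4 in BAGCE 5, 10, 82 and Pioneiro, and 3, 8, 9 and 6 in BAGCE 7, 32, 96 and 98. These splits by group and entry were not counted over other loci, so whether they are particular to members is not known. Several of the 36 members had under 100 reads in some library, where a few reads can make a lead of 1.5 times. With ties counted, MSTRG.727 and MSTRG.19979 changed in BAGCE 5, where each had its lowest CPM. The stricter count was not repeated with a minimum of 100 reads. How far its excess over loci with 9 transcripts rests on low loci is therefore not known.

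MSTRG.2125, MSTRG.13137 and MSTRG.59096, named with MSTRG.15066 and MSTRG.790 for their number of different leaders among the members with at least 100 reads in every library, showed both kinds. In MSTRG.59096, transcripts 2, 10, 10 and 1 led in the high lignin entries, and transcripts 10, 7 and 10 in BAGCE 7, 32 and 96, with a tie in BAGCE 98. There the leading share stayed between 10.9% and 11.8%, and in BAGCE 5 transcript 2 led transcript 10 by 690 reads to 689. By TPM, transcript 6, the shortest, led MSTRG.59096 in all 8 entries. In MSTRG.13137, transcript 1 held 11.05% in BAGCE 5 and 3.55% in BAGCE 96, while transcript 17 held 2.95% in BAGCE 5 and 11.1% in BAGCE 96. In MSTRG.2125, 5 transcripts led in turn with 10.9% to 13.8%.

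The leader by reads was often the longer transcript. It was the longest of its locus in 549 of the 1296 combinations (42.4%) by reads and in 180 (13.9%) by TPM, and both measures named the same leader in 490 (37.8%). Within a locus the Spearman correlation between transcript length and reads had a median of 0.77 and was above 0 in 156 of 162 members. It is given as a description across 10 to 35 transcripts that share exons. MSTRG.57066 and MSTRG.30767 had the longest transcript as leader by reads in all 8 entries, but by TPM it led in no entry.

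The steadiest members were MSTRG.64710, MSTRG.38120, MSTRG.65756 and MSTRG.57098, by the mean distance between the share profiles of 2 libraries (the percent of reads that would have to move to make them equal). That distance was 1.02% in MSTRG.64710 and at most 1.90% in the other 3, against a median of 9.16% over members with at least 100 reads in every library. The amount of these loci was not steady. MSTRG.64710 had 893.8, 65.4, 116 and 203 CPM in high lignin entries and 112, 53.5, 119 and 96.7 CPM in low lignin. Its transcript 1 held 10.4%, 10.9%, 10.2% and 10.7% in high lignin entries and 10.5%, 10.3%, 10.4% and 10.6% in low lignin. In MSTRG.65756, all 10 transcripts had exactly 13 reads in BAGCE 32.

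Among the 137 members with at least 100 reads in every library, MSTRG.22038, MSTRG.12874, MSTRG.32316 and MSTRG.64618 each had the shares farthest from those of the other libraries in at least 1 entry. MSTRG.22038 has 10 transcripts. Its transcript 6, the longest at 1135 bases, had 104, 344, 366 and 12 reads in the high lignin entries and 669, 212, 242 and 14 in the low lignin entries. These were 31.0%, 77.3%, 68.3% and 0.301% of the locus in high lignin entries and 46.2%, 43.8%, 37.5% and 3.13% in low lignin. Transcript 6 was thus low in 1 entry of each lignin group, BAGCE Pioneiro and BAGCE 98. Transcripts 1 to 5 of MSTRG.22038 held 91.7% of the 3986 reads in BAGCE Pioneiro, where transcript 2 led, and 67.8% of the 447 reads in BAGCE 98, where transcript 4 led. In BAGCE 10 they held 16.6%.

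In MSTRG.32316, with 12 transcripts of 757 to 8244 bases, the longest transcript 9 led in BAGCE 5, 10, Pioneiro and 7 with 17.3%, 12.6%, 19.98% and 16.2%. Transcript 3, the shortest, led in BAGCE 82 and 32, transcript 7 in BAGCE 96 and transcript 2 in BAGCE 98. Transcripts 1 to 3 together held 10.98%, 35.9%, 33.5% and 7.76% in high lignin entries and 10.7%, 69.3%, 25.1% and 72.1% in low lignin. Their reads ran from 73 to 1291 in high lignin entries and from 135 to 336 in low lignin, while the whole locus ran from 218 to 16634 in high lignin entries and from 336 to 2168 in low lignin. The sums over transcripts in MSTRG.32316 and MSTRG.22038 were chosen after their values were seen.

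MSTRG.64618 lists 15 transcripts. Transcripts 1, 2 and 6 each had 132 to 142 of 856 reads in BAGCE Pioneiro and 100 to 102 of 607 in BAGCE 7. In BAGCE 96, transcripts 2, 3, 5 and 6 had 0 of 127 reads, and transcript 1 had 2. A count of 0 allows up to 3 reads, and these limits cover counting error only. Transcript 13 led in BAGCE 96 with 44 reads (34.6%) and held 3.02%, 11.8%, 9.44% and 6.07% in the high lignin entries and 5.77%, 7.41% and 6.59% in the other low lignin entries. Transcripts 8, 9, 12 and 13, grouped after their values were seen, made up 97.6% of the locus in BAGCE 96 and 18.6% to 46.7% elsewhere. The profile of BAGCE 96 was 67.1% away from the mean of the others.

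In MSTRG.12874, the member with the largest mean distance (43.9%), transcripts 9, 14, 3 and 10 led in the high lignin entries and transcripts 9 and 3 in BAGCE 7 and 98, with ties in BAGCE 32 and 96. Transcript 14 had 6, 48, 86 and 37 reads in high lignin entries and 106, 79, 22 and 20 in low lignin. Transcript 9 had 137, 2, 6 and 158 reads in high lignin entries and 137, 9, 48 and 29 in low lignin. High values of 1 of them went with low values of the other in BAGCE 5, 10, 82 and 32, but in BAGCE 7 both were above 100 reads.

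**Figure D4:**
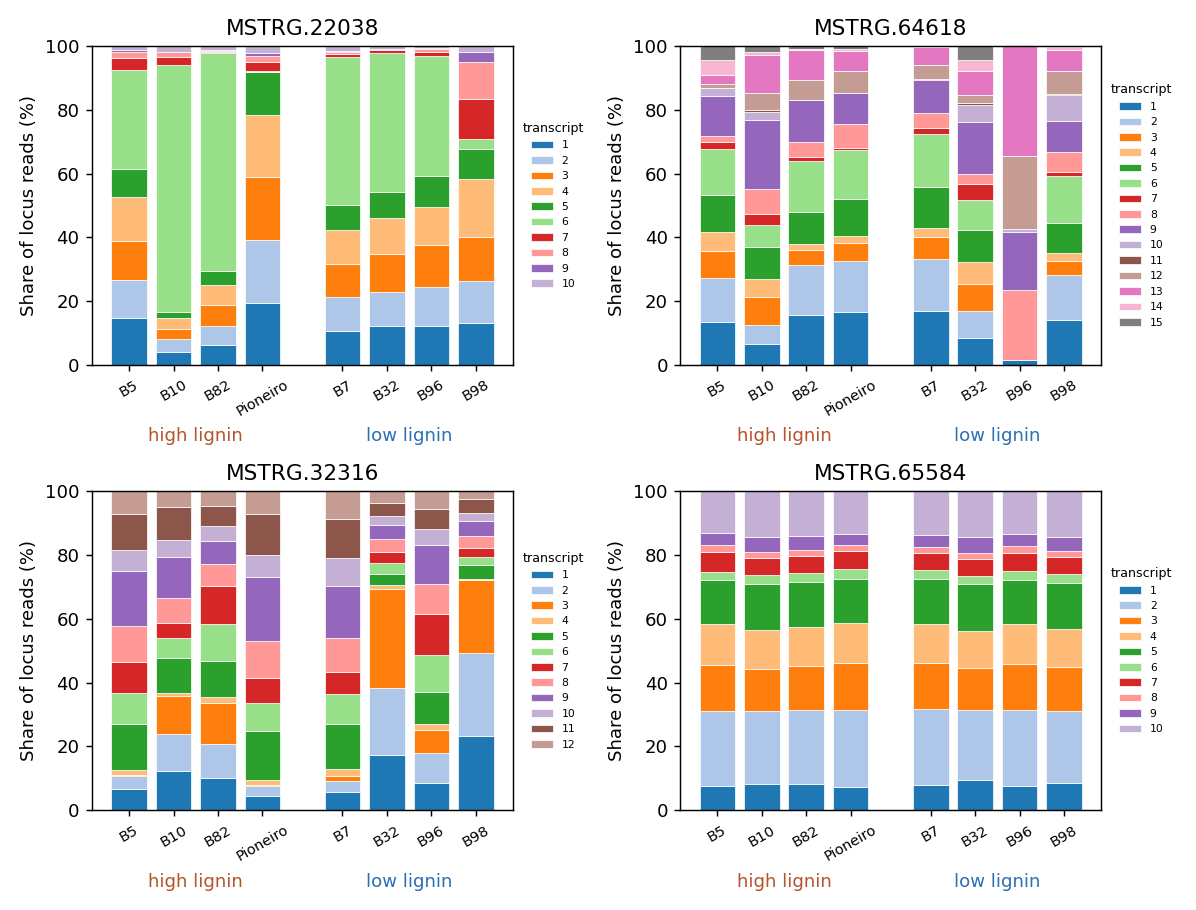
Share of locus reads (vertical axis, percent) by transcript number (colours) in each entry (B5 stands for BAGCE 5, and so on; the 4 high lignin entries left, the 4 low lignin entries right) for MSTRG.22038, MSTRG.64618, MSTRG.32316 and MSTRG.65584. The first 3 change in single entries of both lignin groups, such as transcript 6 of MSTRG.22038 at 0.301% in BAGCE Pioneiro and 3.13% in BAGCE 98, while in MSTRG.65584 transcript 2 stayed at 21.9% to 24.2%.

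Set against the lignin groups, no member had 1 dominant transcript in all high lignin entries and another in all low lignin entries. The background of such loci was 0.017% (2 of 11736 loci with 2 or more transcripts). Pairs of libraries named the same leader in 49.4% of members within a lignin group (mean of 12 pairs) and in 49.6% between groups (16 pairs). The mean distance between share profiles was 10.6% within and 10.4% between groups. The closest pair by shared leaders was BAGCE 82 and BAGCE 7 at 58.0%, 1 entry from each group, and the lowest was BAGCE 5 and BAGCE 96 at 42.6%.

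For this comparison the leading transcript of a locus was the one with the most reads summed over the 8 libraries. Its share did not overlap between the groups in 5 of 162 members (3.09%), beside 2.25% of all loci with 2 or more transcripts. It was higher in high lignin in 2 members, beside 1.26% of all loci, and lower in 3, beside 0.988%. Without 1 entry, and so with fewer values to separate, the count was 13 without BAGCE 82, 11 without BAGCE 10 or BAGCE Pioneiro, 10 without BAGCE 7 and 8 without BAGCE 98. The 5 members are named because they are few, after their values were seen. MSTRG.66221.8 held 17.3%, 13.6%, 15.4% and 15.03% in high lignin entries and 13.3%, 10.8%, 8.89% and 13.1% in low lignin. MSTRG.52088.2 held 11.04%, 11.3%, 10.7% and 11.02% in high lignin entries and 10.1%, 10.6%, 10.4% and 10.2% in low lignin. In both, the nearest entries of the groups were less than 0.3 percentage points apart. MSTRG.60624.10 held 12.4%, 15.5%, 11.6% and 15.9% in high lignin entries and 18.7%, 17.3%, 16.1% and 16.5% in low lignin. The other 2 lower members were MSTRG.16084 and MSTRG.57676. None of the 5 passed the usage test described next.

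Transcript usage, the change of a transcript relative to the rest of its locus, was tested with edgeR's diffSpliceDGE over 15356 loci with Benjamini-Hochberg adjustment. Its locus-level test treats the transcripts of a locus as independent, although some have equal counts. Of the 185 members 1 passed, MSTRG.59925 (unadjusted p = 1.33e-06, edgeR adjusted p = 0.0204), and it was the only one of all loci, a background of 0.00651%. At an unadjusted p under 0.05, 2 members passed (1.08%), beside 0.156% of all loci. With 1 library left out this was 1 without BAGCE 5, BAGCE 82 or BAGCE 7 and 5 without BAGCE 96. The p-values lay near 1: 160 of the members and 62.3% of all loci had a p over 0.95. Limma-voom's diffSplice called 0 loci, with 0 members at an unadjusted p under 0.05 and 0.0977% of all loci. With limma-voom's diffSplice MSTRG.59925 had an unadjusted p of 0.485.

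MSTRG.59925 listed 11 transcripts. Transcript 1 had 0, 0, 0 and 0 reads in high lignin entries and 36, 67, 89 and 89 in low lignin. Transcript 8 had 0 in all 4 high lignin entries and 108, 51, 68 and 50 in low lignin. Transcript 11 had 0 in all 4 high lignin entries and 70, 38, 48 and 32 in low lignin. Transcript 4 was alike, with 0 in high lignin entries and 43, 26, 27 and 22 in low lignin, so 4 of the 11 transcripts had reads in low lignin alone. The other 7 had reads in both groups. Transcripts 5, 6, 7, 9 and 10 each had the same counts, 0, 45, 32 and 27, in high lignin, and transcript 5 had 187, 98, 159 and 82 in low lignin. BAGCE 5 had 0 reads for all 11 transcripts.

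The sum over MSTRG.59925 was also lower: 0, 267, 168 and 171 reads in high lignin entries and 1181, 696, 1134 and 680 in low lignin, with no overlap. In CPM this was 9.15 ± 7.38 in high lignin entries and 58.5 ± 18.4 in low lignin (SD, n = 4 each). Transcripts 1, 4, 8 and 11 together held 20.5% to 28.4% of the locus in low lignin. None of the 168 to 267 summed reads fell on them in the high lignin entries that had reads. Most of those summed reads lay on the transcripts listed above with equal counts in high lignin. Whether the same reads were counted for several of these transcripts was not tested, so the sums may overstate the number of separate reads. With edgeR transcripts 1, 4, 8 and 11 had adjusted p-values of 0.709 to 0.817. DESeq2 called all 4 lower in high lignin, with adjusted p-values of 1.08e-09 to 1.89e-06, and no other member transcript, beside 0.0452% of all transcripts called lower and 0.0492% called in either direction. Because all high lignin counts are 0, no fold is given. The usage call of MSTRG.59925 was lost without any 1 of the 7 libraries with reads there. Its diffSpliceDGE adjusted p was then 0.160 to 1. Without BAGCE 5, which had no reads there, it was 1.32e-10. With the locus total as offset, limited to loci with 20 or more reads in each library and so without BAGCE 5 for this locus, its unadjusted p was 0.00323 (edgeR adjusted p = 1). With all 8 libraries that fit called 0.0% of 11641 loci; 5 of 162 members had an unadjusted p under 0.05 (3.09%), beside 0.747% of all loci.

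**Figure D5:**
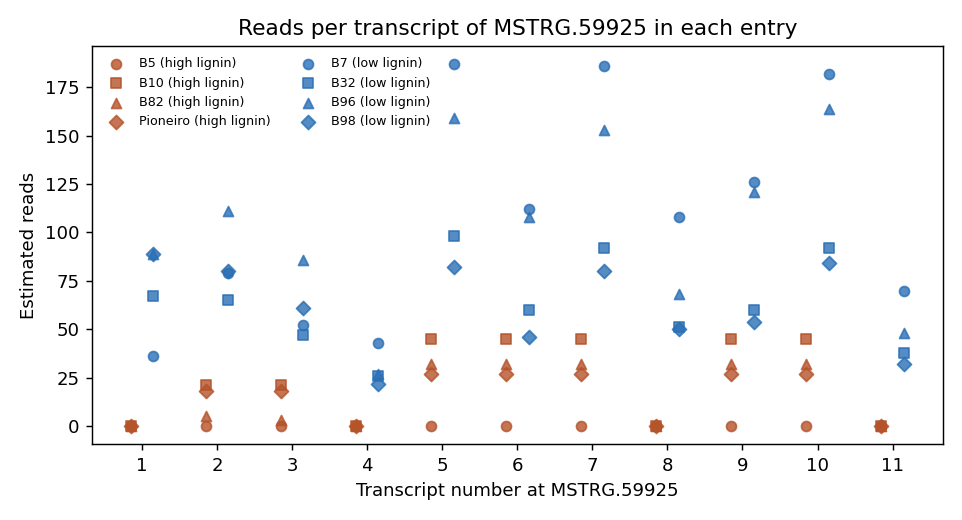
Estimated reads (vertical axis) of the 11 transcripts of MSTRG.59925 (horizontal axis) in each entry, high lignin entries in orange and left of the low lignin entries in blue, 1 symbol per entry (B5 stands for BAGCE 5, and so on). Transcripts 1, 4, 8 and 11 lie at 0 in all high lignin entries and at 22 to 108 reads in low lignin entries.

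The next members by usage p were MSTRG.57066 (unadjusted p = 0.0345), MSTRG.30767 (unadjusted p = 0.0599) and MSTRG.16315 (unadjusted p = 0.207), each with an edgeR adjusted p of 1. In MSTRG.57066, transcript 5 had 15, 2, 4 and 17 reads (0.775% to 3.37% of the locus) in high lignin entries and 16, 38, 10 and 16 (5.08% to 9.79%) in low lignin. Its shares did not overlap between groups, but its reads did. Transcript 5 does not lead this locus and was chosen after its values were seen, so the non-overlap was partly built in. The share of the leading transcript 2 differed by 1.58 percentage points (high minus low, pooled SD 1.30). In MSTRG.30767, transcript 6 held 14.4%, 15.3%, 15.2% and 16.8% in high lignin entries and 16.7%, 17.7%, 17.9% and 18.6% in low lignin, with BAGCE Pioneiro above BAGCE 7. In MSTRG.16315, transcript 3 held 8.29% to 21.9% in high lignin entries and 8.87% to 15.9% in low lignin.

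No member passed the test on summed reads per locus. By edgeR 0 of the 185 members and 0.0% of 46894 loci passed, and at an unadjusted p under 0.05 there were 4 members higher, beside 0.968% of all loci, and 2 lower, beside 1.5%, together 3.24% beside 2.47%. That count of 6 became 13 without BAGCE 82, 10 without BAGCE 10, 3 without BAGCE 5, 2 without BAGCE 7 and 1 without BAGCE Pioneiro. DESeq2 called 0 members and 0.049% of all loci, and at an unadjusted p under 0.05 it had 13 members (7.03%), beside 4.86% of all loci. CPM did not overlap in 1 member higher in high lignin (MSTRG.11292), beside 0.55% of all loci, and in 2 members lower (MSTRG.59217 and MSTRG.59925), beside 0.97%. MSTRG.11292 is named after its values were seen. These shares are near the background. For single transcripts edgeR called 0 of 2156 member transcripts, beside 0.0% of all 75218; 228 member transcripts were not tested because of low counts. At an unadjusted p under 0.05, 71 member transcripts in 17 loci passed (3.29%), beside 2.38% of all, and with 1 library left out the count of member transcripts ran from 29 without BAGCE 5 to 153 without BAGCE 82.

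The 2 members with the smallest p on the higher side were MSTRG.47699 and MSTRG.1255. MSTRG.47699 had 30.6, 14.96, 9.73 and 23.0 CPM in high lignin entries and 5.45, 7.92, 8.61 and 12.6 CPM in low lignin, a log2 fold change of 1.18 (SE 0.45, unadjusted p = 0.0277, adjusted p = 0.9997, edgeR). MSTRG.1255 had 573, 313, 165 and 91.4 CPM in high lignin entries and 159, 54.6, 86.2 and 60.2 CPM in low lignin, a log2 fold change of 1.67 (SE 0.63, edgeR adjusted p = 0.9997), and of 1.07 without BAGCE 5. In both, the groups overlapped. On the lower side, besides MSTRG.59925 (-2.68, SE 1.16), MSTRG.311 had 4.29, 1.74, 5.65 and 3.57 CPM in high lignin entries and 47.0, 4.56, 9.51 and 6.87 CPM in low lignin, a log2 fold change of -2.15 (SE 0.79, edgeR adjusted p = 0.9997). BAGCE 7 alone stood far above the other low lignin entries, and without it the value for MSTRG.311 was -0.79. In bulk stem RNA, fewer cells that use a locus and less RNA per cell cannot be told apart.

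Taking the sign alone, 112 of 185 members (60.5%) had a positive log2 fold change, with a median of 0.14, beside 49.0% and -0.01 over all loci. Without BAGCE 5 it was 102 members and a median of 0.04, beside 50.7% and 0.01 over all loci. BAGCE 5 had the highest CPM of the 8 entries in 62 of the 162 members, and the next, BAGCE 32, in 26. The lowest CPM was in BAGCE 96 in 34 members, in BAGCE 82 in 30 and in BAGCE 5 in 17. The 162 leave out members with under 20 reads in some library. BAGCE 5 had 15 members under 20 reads, the most of any entry, so members low in BAGCE 5 are partly missing from these counts. Which entry was highest or lowest was not counted over all loci, so whether these counts are particular to members is not known.

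The level of members also differed between single entries. The highest CPM of the 8 entries was a median of 4.60 times the lowest over the 162 members, compared with 3.71 over 24899 loci with the same minimum of reads. In 38 members it was over 10 times, and in 11 under 2 times. Over 100-fold were 3 members, named after their values were seen: MSTRG.19979, MSTRG.727 (737-fold, lowest in BAGCE 5 and highest in BAGCE 7) and MSTRG.42775 (146-fold, lowest in BAGCE 98 and highest in BAGCE 7). MSTRG.45780, also chosen after its values were seen, had the smallest of these ranges, at 1.42-fold.

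In 17 of the 185 members (9.19%) some library had 0 reads for the whole locus, beside 13.4% of all loci tested. Of these, 12 were at 0 in high lignin entries alone, 3 in low lignin entries alone and 2 in both; over all loci with such a 0, 60.3% were at 0 in high lignin entries alone, 18.4% in low lignin entries alone and 21.3% in both. BAGCE 5 was at 0 in 11 members (5.95%), beside 7.796% of all loci tested, the highest share of any entry. In 6 of the 11 it was the only entry at 0. MSTRG.263 had 0 reads in BAGCE 5 and 481 to 26178 in the other 7 entries. MSTRG.433 had 0 in BAGCE 5 and 80 to 53525 elsewhere. MSTRG.10654 was the only member at 0 in 3 entries of 1 group: it had 606, 636, 65 and 803 reads in high lignin entries and 0, 163, 0 and 0 in low lignin (edgeR adjusted p = 0.9997). These loci were chosen after their values were seen. A transcript counted as lost if it had 0 reads in 1 entry and at least 10 in every other. Its locus also needed at least 100 reads in that entry. Such losses were found in 2 members and were not counted over other loci. They were transcripts 2, 3, 5 and 6 of MSTRG.64618 in BAGCE 96, and transcripts 3, 4, 8 and 9 of MSTRG.16104 in BAGCE 5. MSTRG.16104 had 204 reads in BAGCE 5. In the other entries these transcripts had at least 15 reads. MSTRG.16104 is named after its values were seen.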

How the data were processed

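Young stem RNA from 8 entries was sequenced with a stranded TruSeq kit on a HiSeq, with RNA integrity numbers over 6.4, per the labels' protocols. The tools were Salmon 0.7.2, StringTie 2.0.4, FastQC 0.11.8 and STAR 2.5.2b, per the submitters' processing notes. The genome build, like the annotation, each tool's role and the treatment of multiply assigned reads, was not given in the sources used here. Per the file headers, the authors deposited for each transcript its length and effective length (other values, in bases), TPM and an estimated count of reads. Within 0.001 reads, 99.984% of members' estimated counts were whole, and all were rounded before testing. The authors' TPM was used as deposited for shares.

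Groups (4 entries of high and 4 of low lignin) came from the labels; no batch or pairing is given. The rule for members uses identifiers only, but it and the lists were chosen with earlier results of these data known. Shares used loci with at least 20 reads in every library, and a tie for the lead counted as no leader, except in the count of changes by 1.5 times, where tied libraries are stated. Dominance, non-overlap and steadiness are descriptions with no test. Counts were tested with edgeR 4.0.16 (R 4.3.3; quasi-likelihood, TMM, filterByExpr, robust, lignin group as the only term) per transcript and summed per locus, and with diffSpliceDGE for usage. All fits ran on every transcript or locus that passed the filter, with Benjamini-Hochberg adjustment at 0.05. The fits were also run on simulated data. Those data drew each transcript independently, so they cannot show how the tests behave where transcripts share reads. Alternatives were DESeq2 1.42.0, limma 3.58.1, RLE scaling, no filter, merged transcripts and each library left out. The locus total as offset was added after seeing the data. Loci were named by rule: the most transcripts, the most reads, the most leaders, the steadiest and the farthest in each entry (these 3 with at least 100 reads in every library), the smallest usage p, and the smallest p in each direction; any other is marked as chosen after its values were seen. Salmon divides shared reads by a model, and reads counted for several transcripts or mates counted singly would raise totals, so counting precision may be overstated. No molecular identifiers are given.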

Additional observations from a re-analysis of the deposited data

Results flagged for a closer look

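In groups of 4 entries, 1 entry stood apart from the other 3 by Dixon's 95% limit in 13 of the 107 groups looked at, where chance gives about 1 in 20. Several of these loci had been named because 1 entry stood far from the others or for a small p, so a higher count was built in. Among CPM values of high lignin entries, these were MSTRG.64710 at 893.8 and MSTRG.38120 at 261.9, both in BAGCE 5, and MSTRG.22038 at 189.8 and MSTRG.32316 at 792.3, both in BAGCE Pioneiro. Among low lignin entries, MSTRG.57098 stood at 829.4 CPM in BAGCE 96, and 3 loci were high in BAGCE 7: MSTRG.12874 at 81.47, MSTRG.32316 at 137.5 and MSTRG.311 at 46.98 CPM. In shares of locus reads, high lignin entries gave MSTRG.57066.2 at 20.9% in BAGCE 5 and MSTRG.47699.10 at 9.129% in BAGCE Pioneiro. Low lignin entries gave MSTRG.65756.5 at 10% and MSTRG.1255.14 at 11.06%, both in BAGCE 32. The median distance of a member's share profile from the other libraries was 6.574% in BAGCE 96, highest of the low lignin entries. What sets these entries apart was not tested.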

How the results depend on the processing

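The 1 usage call became 0, among members and among all loci, with limma-voom and with the locus total as offset, where the called locus was not tested because BAGCE 5 has no reads there, and ran from 0 to 1 with each library left out. The cause was not tested. DESeq2 gave 23 locus calls over all loci, where edgeR gave 0, and 4 member transcripts of 37 in all. The 28 loci with a constant leader became 17 by TPM and 126 when a change needed a 1.5-fold lead (129 with ties left out, added after seeing the data). They were 29 to 33 with a library left out, where this count can only stay or rise. The 5 non-overlapping shares ran from 4 to 13 with a library left out, with fewer values to separate. The difference in members' share of reads, -2.54 percentage points (high minus low), ran from -4.24 to -0.785. No value with a call reversed. No paired analysis was possible because the 8 libraries come from 8 entries and the labels give no replicate numbers.

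Depth limits shares at low loci: at 20 reads, 1 read is a large part of a share, and leads of 1 read occurred. With 1 library per entry, a change in 1 entry has no repeat.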

Other observations

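Equal counts were found within members. Among pairs of transcripts of a member with at least 20 reads each, 2.67% had equal counts in a library, beside 6.58% in loci with 2 to 9 transcripts. In 11 members, 23 transcripts had the same count as another transcript of the locus in all 8 libraries. Even numbers made up 60.7% to 65.0% of member counts from 1 to 1000 in high lignin entries and 62.6% to 63.3% in low lignin entries, where all transcripts had 60.5% to 61.9% in high lignin and 59.9% to 62.3% in low lignin.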
